A study of Mus musculus with 9 samples.

Results

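Receptor tyrosine kinases and their membrane-bound ephrin ligands were examined in the hippocampus of mice that carry an activating Braf allele. The group holds 43 named genes, 35 receptors and 8 ephrins. All 43 were in the deposited table of 18275 genes, and 42 had a mean of at least 10 over the 9 libraries, as did 16196 genes in all. The ephrin Efna4 was the member below that mean, at 9.54, and was not tested, and Ror2 at 16.7 was the lowest of those tested.

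RNA was sequenced from the hippocampus of 4 Nestin;BrafKE/+ mice and 5 Braf+/+ mice, with 1 library per animal, all adult males of the strain labelled C57BL/6N. The label of the mutant group is K499E, for 1 Braf allele that expresses the mutant form only once Nestin-Cre acts in neural progenitors. The descendants of these progenitors include neurons, astrocytes and oligodendrocytes. Endothelial cells, mural cells and microglia mostly come from other lineages. The controls are labelled WT and were Braf+/+ littermates, and whether they carried Nestin-Cre is not given in the sources used here. Library names in the labels fall into 3 series. The mutants fall as replicate 1 in series A, replicates 2 and 3 in B and replicate 4 in C, and the controls as replicates 1 to 3 in A, replicate 4 in B and replicate 5 in C.

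Receptor tyrosine kinases are single-pass membrane proteins that most often pair up when a ligand binds and then phosphorylate one another. Adaptor proteins dock on the phosphorylated tail and bring an exchange factor to RAS, which in turn engages RAF kinases such as BRAF and the MEK and ERK kinases below them. Active ERK damps the receptors through phosphorylation and through induced inhibitors, so the receptors lie upstream of the mutant kinase and under its feedback. Ephrins are held on the cell surface, the A class by a lipid anchor and the B class by a membrane-spanning stretch, and they signal into their own cell as well as through Eph receptors on the cell they touch. In the hippocampus Eph receptors and ephrins guide axons, shape dendritic spines and link astrocytes to synapses.

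Values are given as normalised signal, the deposited value per gene and library. Library totals ran from 19551312 to 20091532, and the number of reads behind them is unknown, since the values had been normalised and adjusted for batches before deposit. A difference is the limma estimate of Nestin;BrafKE/+ minus Braf+/+ on log2(signal + 1) with the series as a term, and a gene passed the test where its Benjamini-Hochberg adjusted p over all 16196 genes was under 0.05. The signal of Braf itself was 2264 ± 144 (SD, 4 mutants) against 2786 ± 153 (SD, 5 controls), a log2 difference of -0.30 (adjusted p = 0.0379). When libraries were left out 1 at a time the call held in 2 of 9 cases, and the highest adjusted p was 0.203, without Braf+/+ replicate 4. The fits without Nestin;BrafKE/+ replicate 4 and without Braf+/+ replicate 5 gave the same estimates, since each leaves the other library alone in series C. They count as 1 check wherever such fits are counted. Of 12 ERK feedback and target genes tested, 8 passed and all 12 estimates were higher, with Dusp6, an ERK phosphatase, at a log2 difference of 0.99 (adjusted p = 0.000325). Without Nestin;BrafKE/+ replicate 1 the 8 calls fell to 4, with Dusp5, Spred2, Spry2 and Spry4 lost and Dusp6 kept. Markers of hippocampal fields were present, with all 4 genes each of the dentate, CA1 and CA3 lists above a mean of 10. Braf+/+ replicate 2 stood apart in the sum of 9 choroid plexus markers, at 392876 there and 1524 to 115475 in the other libraries. Most of that sum was Ttr, at 381593. Braf+/+ replicate 4 had the next highest sum, 115475, and exceeded replicate 2 for Kl, Otx2, Prlr and Sostdc1. All 9 estimates were lower in the mutants, with a median log2 difference of -1.39, and 0 passed. Without Braf+/+ replicate 2 the same 3 members passed as with it, at log2 differences of 0.53 for Fgfr1, -0.82 for Epha10 and 0.39 for Efnb3. Without Braf+/+ replicate 4 Fgfr1 and Epha10 passed and Efnb3 did not, at 0.31 (adjusted p = 0.113). The part of choroid plexus in these results was not tested.

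Of the 42 members tested, 3 (7.14%) passed the test. Fgfr1 and Efnb3 rose and Epha10 fell. Over all genes tested, 2.88% passed, 1.52% as higher and 1.36% as lower. The estimate was above 0 for 28 members and below 0 for 14, with a median of 0.05, against a median of 0.0003 over all genes. An unadjusted p under 0.05 was found for 14 members (33.3%) and for 18.5% of all genes. The 2 groups of libraries did not overlap for 8 members (19.0%), 7 of them higher, and for 15.7% of all genes, 1234 higher and 1316 lower. The difference had the same sign in all 3 series for 17 members (40.5%) and for 36.6% of all genes. The 39 members that did not pass had estimates from -0.36 to 0.45, and their standard errors and those of the 3 called members ran from 0.06 to 0.34. For 18 of these 39 the sign of the estimate changed in at least 1 of the alternative fits, so the counts of signs include members close to 0.

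**Figure D1:**
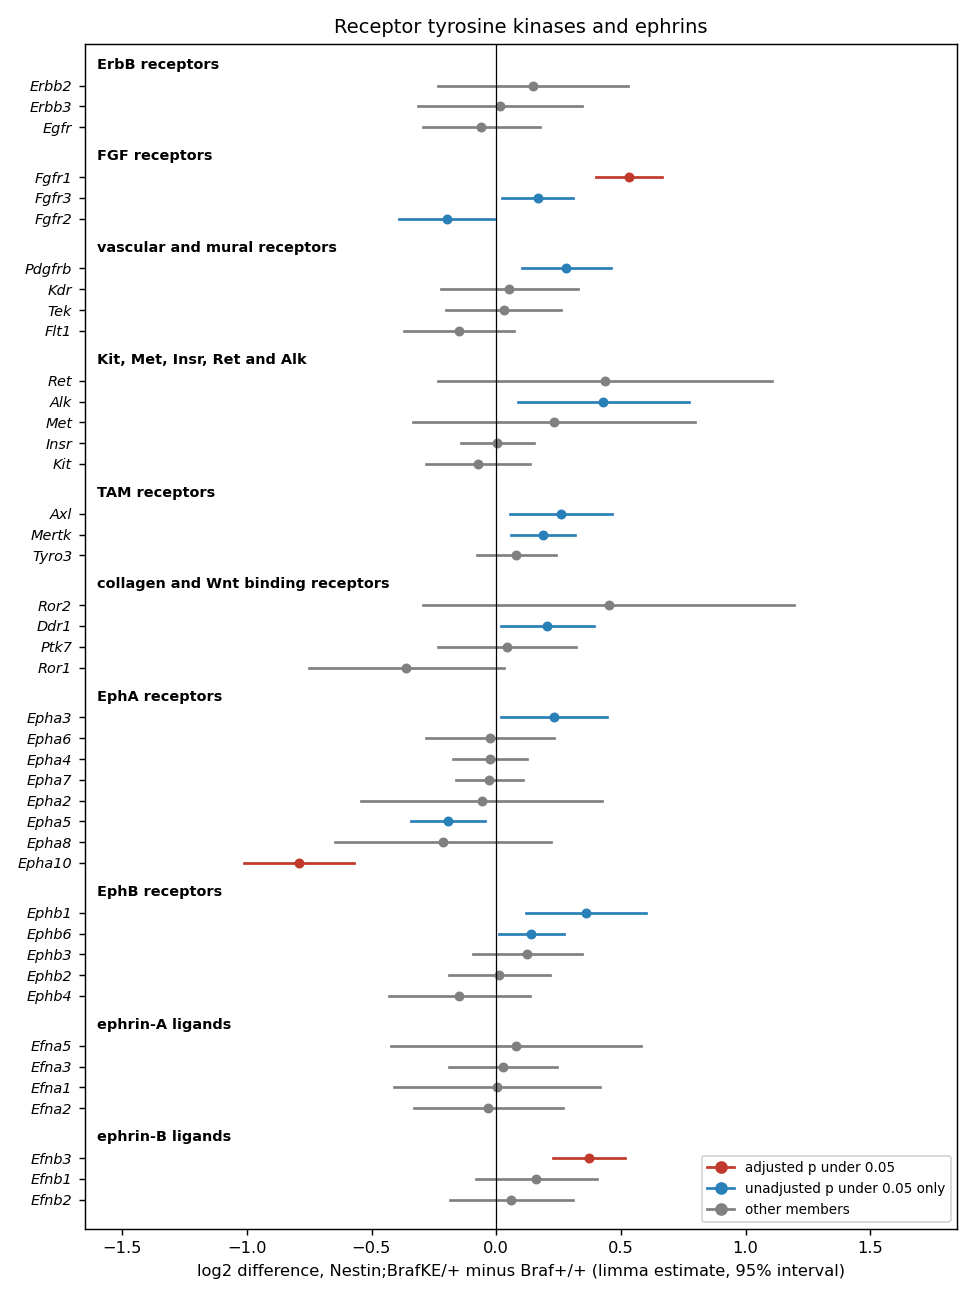
Log2 difference between Nestin;BrafKE/+ (n = 4) and Braf+/+ (n = 5) for the 42 tested members, grouped by role, with points for the limma estimate and lines for its 95% interval. Red marks the 3 members with an adjusted p under 0.05 (Fgfr1, Epha10 and Efnb3), blue the other 11 with an unadjusted p under 0.05, and grey the 28 that reached neither.

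The levels of the members spanned more than 2 orders of magnitude. Per kilobase of the canonical transcript, Epha4 was highest in both groups, with a signal of 1024 ± 80.2 (SD, n = 5) in Braf+/+ and 1005 ± 46.2 (SD, n = 4) in Nestin;BrafKE/+. Efnb3 followed, at 662 ± 46.6 in Braf+/+ and 856 ± 30.3 in Nestin;BrafKE/+. Next in Braf+/+ by level came Tyro3 (551 ± 34.8), Fgfr3 (497 ± 29.1), Efna3 (442 ± 38.6) and Fgfr1 (431 ± 20.6). Efna3, Fgfr1 and Epha7 (419 ± 24.1), which follow one another in that order, lay within 1 SD of each other. In Nestin;BrafKE/+ Fgfr1 stood at 623 ± 32.1 per kilobase, at rank 3 among the members and above Tyro3 (583 ± 41.6) and Fgfr3 (557 ± 30.4). With the length of all exons joined in place of the canonical transcript, Efnb3 (842 per kilobase) was above Epha4 (772) in Nestin;BrafKE/+, and Fgfr1 was at rank 5 there and rank 8 in Braf+/+. The lowest levels in Braf+/+ were those of Ror2 (3.56), Efna4 (7.19) and Epha2 (7.64), so small differences in these genes rest on few units of signal.

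**Figure D2:**
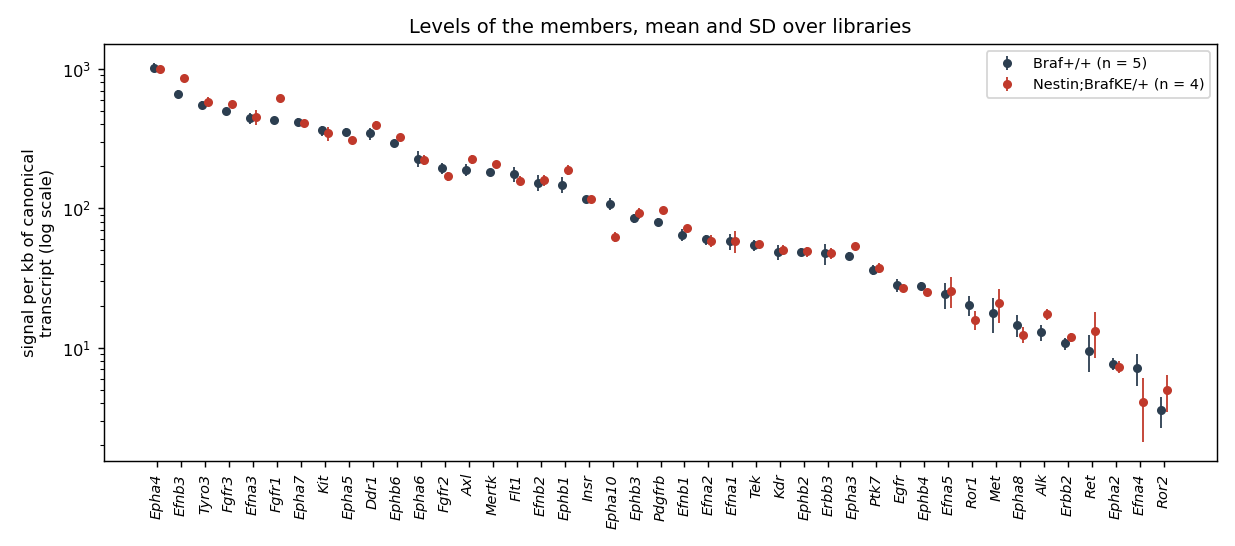
Normalised signal per kilobase of the canonical transcript for all 43 members on a log scale, as mean and SD over 5 Braf+/+ libraries (dark) and 4 Nestin;BrafKE/+ libraries (red), ordered by the Braf+/+ level. Levels ran from 1024 for Epha4 down to 3.56 for Ror2 in Braf+/+, and Fgfr1, Epha10 and Efnb3 are the members whose groups passed the test.

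The FGF receptors hold the first of the 3 called members, and all 3 of them had an unadjusted p under 0.05. They bind fibroblast growth factors together with heparan sulfate and signal through the docking protein FRS2. Fgfr1 (ENSMUSG00000031565, chr8:26003670-26066824 on the plus strand, GRCm39), which is expressed in hippocampal neurons and in the stem cells of the dentate gyrus, rose by 44.6%. Its signal was 3612, 4044, 3932 and 3718 in Nestin;BrafKE/+ replicates 1 to 4 and 2756, 2666, 2653, 2431 and 2719 in Braf+/+ replicates 1 to 5. Every mutant library was above every control, with 3827 ± 197 (SD, n = 4) against 2645 ± 126 (SD, n = 5). The log2 difference was 0.53 (SE 0.06, 95% interval 0.40 to 0.66, adjusted p = 0.00226). It was 0.42, 0.71 and 0.45 in series A, B and C. Fgfr1 passed in all 20 alternative fits. In a bulk tissue sample, fewer cells of a type and less RNA per cell cannot be told apart, and the same holds for more cells and more RNA.

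Fgfr3, which marks astrocytes among hippocampal cells, had 2217, 2519, 2300 and 2371 in the mutants and 2301, 2010, 2096, 1995 and 2076 in the controls. Its groups overlapped through Braf+/+ replicate 1, which was above replicates 1 and 3 of the mutants, and the log2 difference was 0.17 (SE 0.06, adjusted p = 0.199). Fgfr2, found mainly in oligodendrocytes and astrocytes, had 982, 862, 961 and 1017 in the mutants and 972, 1164, 1126, 1202 and 1028 in the controls. Its estimate was -0.20 (SE 0.09, adjusted p = 0.248), opposite in sign to the other 2 receptors, and it ranged from -0.40 in series B to -0.02 in series C. In the Gencode release used here the exons of Fgfr2 share 314 bases (2.8%) with Ctbp2 on the same strand. The paper used an earlier release, so whether any reads behind the deposited values were shared is not known. Of the summed level per kilobase of the 3 receptors, Fgfr1 made up 46.2% ± 1.04 (SD, 4 mutants) against 38.4% ± 1.12 (SD, 5 controls), with ranges of 44.9 to 47.2% and 36.6 to 39.7%. This share rests on the Fgfr1 values that passed the test.

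Markers of several cell types moved with Fgfr1. Of 12 astrocyte markers, 10 were higher and 4 passed (Gfap, S100b, Aldoc and Atp1b2), and their summed signal was 125927 to 139731 in Nestin;BrafKE/+ and 116332 to 130097 in Braf+/+. Gfap, the intermediate filament of astrocytes, was at 0.68. Slc1a2, the largest part of the astrocyte sum with a mean of 64568, was at -0.06. The mean log2 level of the 12 markers, each centred on its mean over the 9 libraries, did not overlap between the groups. It was 0.11 to 0.18 in the mutants and -0.13 to -0.08 in the controls. Of 4 markers of CA1 pyramidal cells, 2 were higher and passed, Wfs1 at 0.61 and Fibcd1 at 0.40. Pou3f1 was at 0.001 (adjusted p = 0.997) and Man1a at 0.19 (adjusted p = 0.424). The summed signal of the 4 was 10068 to 10414 in the mutants and 7570.2 to 8100.8 in the controls. No marker of these lists was below a mean of 10 in the table. The summed signal also lay higher, with no overlap, for 13 oligodendrocyte markers (132241 to 142499 in the mutants, 96988 to 117792 in the controls), 7 markers of their precursors (4339 to 4694, 3605 to 3896) and 8 inhibitory neuron markers (16959 to 18857, 14964 to 16753). Among the inhibitory neuron markers 7 were higher and 1 passed, the neuropeptide gene Npy at 1.01. None of the 4 astrocyte calls held without Nestin;BrafKE/+ replicate 1 or without Braf+/+ replicate 4, and neither did that of Fibcd1. Fgfr1 passed in both cases (limma adjusted p of 0.0204 and 0.0167), as did Wfs1. The part of any of these cell types in the Fgfr1 result was not tested.

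**Figure D3:**
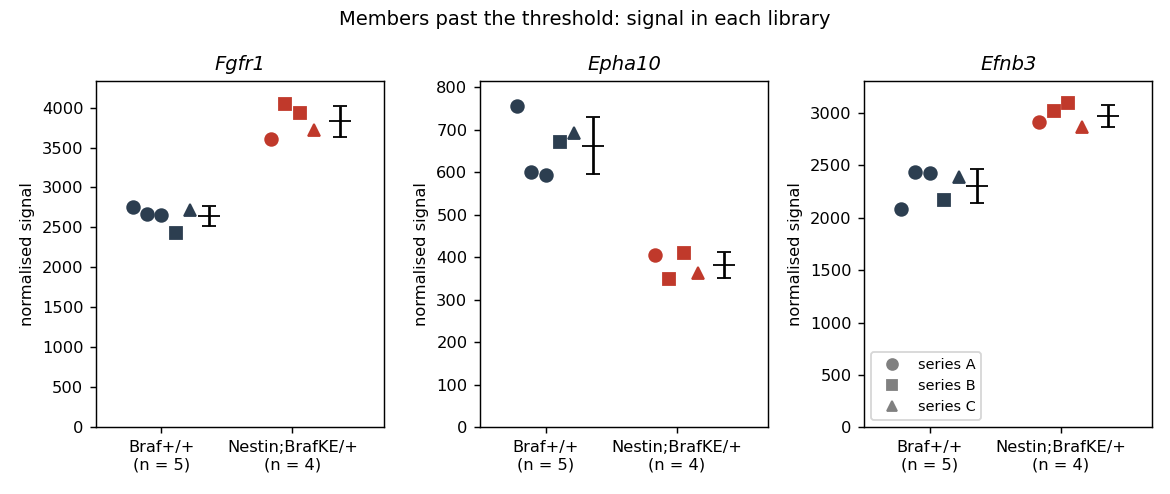
Normalised signal of Fgfr1, Epha10 and Efnb3 in each library, with Braf+/+ (n = 5) in dark and Nestin;BrafKE/+ (n = 4) in red, symbols for the series of library names, and a bar for the mean and SD of each group. The groups do not overlap in any of the 3 panels, with Fgfr1 at 3612 to 4044 against 2431 to 2756.

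The sequences ahead of the 3 called members are shown because these are the members whose RNA level passed the test. Each is the 250 bases that precede the start of the canonical transcript in Gencode vM39 on GRCm39, written 5′ to 3′ on the strand of the gene, and capitals mark GGAA, the core that ETS factors bind, or TTCC, its reverse complement. Fgfr1 has annotated transcript starts upstream of the one used, so its window at chr8:26008495-26008744 lies inside the gene. The windows of Epha10 and Efnb3 are chr4:124774442-124774691 on the plus strand and chr11:69451324-69451573 on the minus strand.
Fgfr1: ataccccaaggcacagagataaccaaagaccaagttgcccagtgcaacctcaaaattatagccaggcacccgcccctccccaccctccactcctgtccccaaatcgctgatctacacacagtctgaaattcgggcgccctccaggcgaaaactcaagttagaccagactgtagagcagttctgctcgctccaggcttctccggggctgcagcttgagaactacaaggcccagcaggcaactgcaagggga
Epha10: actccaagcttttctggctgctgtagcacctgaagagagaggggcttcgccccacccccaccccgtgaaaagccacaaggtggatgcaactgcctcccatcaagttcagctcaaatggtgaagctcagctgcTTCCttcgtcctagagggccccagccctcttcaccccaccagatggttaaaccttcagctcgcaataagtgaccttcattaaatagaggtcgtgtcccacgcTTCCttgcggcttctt
Efnb3: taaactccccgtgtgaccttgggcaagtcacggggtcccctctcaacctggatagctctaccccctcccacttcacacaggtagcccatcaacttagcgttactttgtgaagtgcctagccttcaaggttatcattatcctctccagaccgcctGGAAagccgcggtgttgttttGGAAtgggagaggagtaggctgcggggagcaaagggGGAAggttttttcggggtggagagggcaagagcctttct

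GGAA was found 3 times ahead of Efnb3, at -96, -75 and -39 from the start, 2 times ahead of Epha10, at -118 and -16, and not ahead of Fgfr1. The core is short and was in 93.4% of 16133 windows of the same length and in 38 of the 42 member windows, so its presence sets no member apart. The longer ETS motif CCGGAAGT, which contains the core, was in 0 of 42 member windows and in 3.4% of all. The AP-1 motif TGANTCA was in 2 member windows (Erbb3 and Ror2) and 4.5% of all, and the cyclic AMP response motif TGACGTCA in 2 (Epha2 and Flt1) and 1.9% of all. The EGR1 motif GCGNGGGCG was in 6 (Ddr1, Efna1, Efna3, Efna5, Fgfr3 and Flt1) and 5.9% of all, and the SRF CArG box in 0 and 1.2% of all. Both strands were searched. Letters in a window are a description and say nothing of binding.

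Among the 8 EphA receptors, which bind the lipid-anchored ephrins, 1 passed and 7 had an estimate below 0, with a median of -0.04. Epha10 (ENSMUSG00000028876, chr4:124774692-124811594 on the plus strand), a member of the class whose kinase domain is thought to be inactive, fell by 42.2%. Its signal was 406, 350, 409 and 363 in Nestin;BrafKE/+ and 755, 600, 593, 670 and 693 in Braf+/+. The highest mutant library was below the lowest control, and the means were 382 ± 30.1 (SD, n = 4) and 662 ± 67.5 (SD, n = 5). The log2 difference was -0.79 (SE 0.10, 95% interval -1.01 to -0.57, adjusted p = 0.00413), the largest in size among the members tested. It was -0.67, -0.82 and -0.93 in series A, B and C. Epha10 passed in all 20 alternative fits, with the highest adjusted p on leaving out a library, 0.0404, without Braf+/+ replicate 4. Noncoding RNAs on the opposite strand, 1700125G02Rik and Gm70061, overlap 127 and 780 bases of its exons, and the libraries were made with a stranded kit.

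Some markers of dentate granule cells moved in the same direction as Epha10. Of the 4 markers, 2 were lower and passed, Dsp at -0.78 and Lct at -0.39. Prox1 (-0.05, adjusted p = 0.692) and C1ql2 (0.04, adjusted p = 0.925) lay close to 0. The summed signal of the 4 was 3922 to 4323 in the mutants and 4331 to 4958 in the controls. No marker of the list was below a mean of 10. Of 4 CA3 pyramidal cell markers 2 were lower and 0 passed, with Iyd at -1.23 (adjusted p = 0.0505) and Cpne4 at -0.22 (adjusted p = 0.203). The other CA3 markers, Bok (0.15) and Grik4 (0.09), were higher. The summed signal of the CA3 markers was 3976 to 4794 in the mutants and 4099 to 4885 in the controls. Among 6 excitatory neuron markers 3 were lower and Neurod2 passed at -0.53, with the summed signal at 132280 to 156049 in the mutants and 123350 to 139859 in the controls. The calls of Dsp, Lct and Neurod2 were lost without Nestin;BrafKE/+ replicate 1, at adjusted p-values of 0.104, 0.118 and 0.0753, and those of Dsp and Lct also without Braf+/+ replicate 4. Whether these cells had a part in the Epha10 result was not tested.

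The other EphA receptors did not pass. Epha5, a neuronal receptor with a role in axon mapping, had 2580, 2358, 2341 and 2338 in Nestin;BrafKE/+ and 2882, 2442, 2741, 2874 and 2826 in Braf+/+. The groups overlapped through replicate 1 of the mutants and replicate 2 of the controls, and the log2 difference was -0.19 (SE 0.07, adjusted p = 0.154), with -0.06, -0.29 and -0.27 in series A, B and C. Epha3, which binds ephrin-A5, had 320, 313, 290 and 296 in the mutants and 281, 233, 252, 265 and 267 in the controls. It was the EphA receptor with an estimate above 0, its groups did not overlap, and the difference was 0.23 (SE 0.10, adjusted p = 0.234), with 0.33, 0.18 and 0.15 in the series. Epha4, the most abundant member and a receptor for both ephrin classes at synapses and on astrocyte contacts, had a difference of -0.03 with a 95% interval of -0.17 to 0.12. Epha7 was as tightly bounded, at -0.03 (95% interval -0.16 to 0.11). Epha6 (-0.03), Epha2 (-0.06) and Epha8 (-0.21) had unadjusted p-values of at least 0.301.

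Of the 5 EphB receptors, which bind the membrane-spanning ephrins and cluster glutamate receptors at synapses, 0 passed, 2 had an unadjusted p under 0.05 in limma, and 4 estimates were above 0. Ephb1 had 832, 814, 929 and 968 in Nestin;BrafKE/+ and 647, 628, 848, 711 and 628 in Braf+/+. Braf+/+ replicate 3 lay inside the mutant range, and the log2 difference was 0.36 (SE 0.11, adjusted p = 0.111), with 0.25, 0.29 and 0.62 in the series. Ephb1 passed in 1 of the 9 fits with a library left out, that without Braf+/+ replicate 3 (0.42, adjusted p = 0.0350), and at the other end stood 0.27 (adjusted p = 0.282) without Nestin;BrafKE/+ replicate 4. Ephb6, like Epha10 a receptor without an active kinase, had 1277, 1396, 1367 and 1328 in the mutants and 1245, 1197, 1265, 1147 and 1229 in the controls. Its groups did not overlap, and the difference was 0.14 (SE 0.06, adjusted p = 0.235). Ephb6 lies 1.95 Mb from Braf on chromosome 6. Ephb3 (0.13), Ephb2 (0.01) and Ephb4 (-0.15) had unadjusted p-values of at least 0.236, and the 95% interval for Ephb2 was -0.19 to 0.22.

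Of the 7 ephrins tested, 1 passed and 6 estimates were above 0. Efnb3 (ENSMUSG00000003934, chr11:69444918-69451323 on the minus strand), a B-class ephrin that repels axons at the midline and acts at excitatory synapses, rose by 29.4%. Its signal was 2916, 3019, 3098 and 2863 in Nestin;BrafKE/+ and 2086, 2433, 2430, 2171 and 2387 in Braf+/+. All mutant libraries exceeded all controls, with means of 2974 ± 105 (SD, n = 4) and 2302 ± 162 (SD, n = 5). The log2 difference was 0.37 (SE 0.07, 95% interval 0.23 to 0.52, adjusted p = 0.0171), and it was 0.34, 0.49 and 0.26 in series A, B and C. The call depended on single libraries. The adjusted p was 0.0904 without Nestin;BrafKE/+ replicate 1, 0.0546 without Nestin;BrafKE/+ replicate 3 and 0.113 without Braf+/+ replicate 4, with differences of 0.31 to 0.41 over all 9 such fits. With 4 name prefixes in place of the 3 series it was 0.0568. The marker sums of CA1, dentate, oligodendrocyte, precursor and inhibitory cells given above did not overlap between the groups. Those of astrocytes did, while the mean log2 levels of the astrocyte markers did not. The part of these cells in the Efnb3 result was not tested.

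The other 2 B-class ephrins did not pass. Efnb1 was at 0.16 (95% interval -0.08 to 0.40) and Efnb2, a ligand of the vessel wall and of astrocytes, at 0.06 (-0.19 to 0.31). The A-class ephrins Efna1, Efna2, Efna3 and Efna5 lay between -0.03 and 0.08, with unadjusted p-values of at least 0.731. Efna1, Efna3 and Efna4 are neighbours on chromosome 3, with 32.8 kb between Efna1 and Efna3 and 10.4 kb between Efna3 and Efna4. The noncoding Gm15998 on the opposite strand overlaps 759 bases (30.7%) of Efna3 exons. Efna4, below the minimum mean, had 3.01, 6.95, 5.99 and 10.97 in the mutants and 14.9, 12, 13.94, 11.05 and 7.01 in the controls. The groups overlapped, and without the minimum mean its difference was -0.82 (SE 0.42, adjusted p = 0.351).

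The TAM receptors Tyro3, Axl and Mertk bind Gas6 and protein S and drive the uptake of dead cells and synapses by glia. All 3 estimates were above 0 and 0 passed, while 2 had an unadjusted p under 0.05 in limma. Mertk, expressed by astrocytes and microglia, had 946, 989, 978 and 986 in Nestin;BrafKE/+ and 852, 897, 840, 841 and 846 in Braf+/+. Its groups did not overlap, and the log2 difference was 0.19 (SE 0.06, adjusted p = 0.119), with 0.13, 0.23 and 0.22 in series A, B and C. Axl had 960, 1082, 1009 and 1146 in the mutants and 795, 1012, 902, 877 and 799 in the controls. Braf+/+ replicate 2 lay inside the mutant range, and the difference was 0.26 (SE 0.09, adjusted p = 0.165), with 0.09, 0.25 and 0.52 in the series. Tyro3, the neuronal member of the class, was at 0.08 (95% interval -0.08 to 0.24). Of 11 microglial markers 10 were higher and 0 passed, with 4 at an unadjusted p under 0.05 in limma, and their summed signal was 8268 to 9106 in the mutants and 7380 to 8316 in the controls. The part of microglia in the TAM values was not tested.

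The vascular and mural receptors had 0 members past the test and 1 at an unadjusted p under 0.05 in limma. Pdgfrb, the receptor that pericytes need, had 506, 508, 536 and 554 in Nestin;BrafKE/+ and 404, 469, 441, 439 and 410 in Braf+/+. The groups did not overlap, and the log2 difference was 0.28 (SE 0.08, adjusted p = 0.0944), with 0.21, 0.25 and 0.43 in the series. It gave the smallest adjusted p among the 39 members that did not pass. The endothelial receptors Kdr (0.05), Tek (0.03) and Flt1 (-0.15) had unadjusted p-values of at least 0.165. Flt1 was highest in Braf+/+ replicate 2, at 1413 against 992 to 1253 elsewhere, the library with the most choroid plexus signal. Of 10 mural markers, a list without Pdgfrb, 8 were higher and 0 passed, with 2 at an unadjusted p under 0.05 in limma, and their summed signal was 4541 to 5195 in the mutants and 4013 to 5516 in the controls. Of 10 endothelial markers 0 passed, with 1 at an unadjusted p under 0.05 in limma, and the sums were 5844 to 6787 and 5928 to 7322.

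The ErbB receptors, which bind the EGF family and neuregulins, had 0 members at an unadjusted p under 0.05 and 0 past the test in limma. Egfr was at -0.06 (95% interval -0.29 to 0.17), Erbb2 at 0.15 (-0.23 to 0.53) and Erbb3, an oligodendrocyte-lineage receptor, at 0.01 (-0.31 to 0.34). Of 13 oligodendrocyte markers all were higher and 4 passed (Mobp, Mog, Mag and Cldn11), with the sums given above. Each of these 4 calls was lost without Nestin;BrafKE/+ replicate 1, without Nestin;BrafKE/+ replicate 3 and without Braf+/+ replicate 4. The Erbb3 signal was 247.3 to 305.2 in the mutants and 217.6 to 336.5 in the controls, so the mutants lay inside the control range. The part of the oligodendrocyte lineage in the values of Erbb3, Fgfr2 and Ddr1 was not tested.

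Among the receptors Kit, Met, Insr, Ret and Alk, 0 passed and 1 had an unadjusted p under 0.05 in limma. Alk, a receptor for the ALKAL ligands with a role in neuronal development, had 134, 128, 131 and 110 in Nestin;BrafKE/+ and 104, 93.0, 76.7, 86.4 and 106 in Braf+/+. The groups did not overlap, and the log2 difference was 0.43 (SE 0.16, adjusted p = 0.171), with 0.55, 0.58 and 0.05 in the series. Ret, the receptor of the GDNF family, had an estimate of similar size, 0.44, but its SE was 0.30 and its series differed in sign, with 0.74, 1.01 and -0.78. Met also changed sign, with 0.66, 0.34 and -0.55 in series A, B and C and an estimate of 0.23 (SE 0.26). Kit, the receptor of stem cell factor, was at -0.07, and Insr, the insulin receptor, was at 0.004 with a 95% interval of -0.14 to 0.15.

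Receptors that bind collagen or Wnt ligands had 0 members past the test and 1 at an unadjusted p under 0.05 in limma. Ddr1, a collagen receptor of the oligodendrocyte lineage, had 1754, 1546, 1614 and 1528 in Nestin;BrafKE/+ and 1239, 1284, 1558, 1446 and 1469 in Braf+/+. Braf+/+ replicate 3 exceeded 2 of the mutants, and the log2 difference was 0.21 (SE 0.08, adjusted p = 0.227), with 0.37, 0.13 and 0.06 in the series. A small nuclear RNA, Gm23864, shares 107 bases of Ddr1 exons on the same strand. Ror1 was at -0.36 (SE 0.18), with -0.91 in series B and -0.09 and -0.03 in A and C, and Ror2 was at 0.45 (SE 0.34) with a mean signal of 16.7. Ptk7, a Wnt co-receptor without kinase activity, was at 0.04 (SE 0.13).

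**Figure D4:**
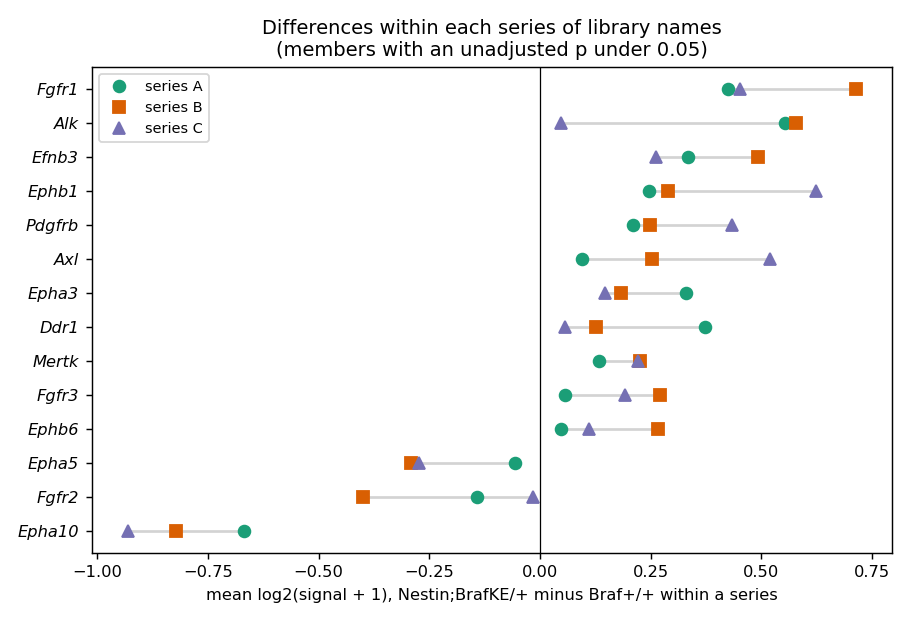
Difference in mean log2(signal + 1) between Nestin;BrafKE/+ and Braf+/+ within series A (circles), B (squares) and C (triangles) for the 14 members with an unadjusted p under 0.05. All 14 kept 1 sign across the series, with Fgfr1 between 0.42 and 0.71, Epha10 between -0.93 and -0.67 and Alk between 0.05 and 0.58. The 14 were selected by p from the fit over these same series, so their agreement in sign is no separate check. Without that selection, 17 of 42 members (40.5%) kept 1 sign, as did 36.6% of all genes.

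For 6 members the 95% interval lay within 0.25 of 0 on the log2 scale, namely Epha4, Epha7, Insr, Tyro3, Ephb2 and Efna3, and for 29, these included, it lay within 0.5. The widest intervals were those of Ror2, Ret, Met, Efna5, Epha2 and Epha8, with means of 16.7 to 131, and each reached beyond 0.4 on at least 1 side. Intervals of other uncalled members also passed 0.4, among them Alk (to 0.77), Ror1 (to -0.75), Ephb1 (to 0.60) and Axl (to 0.47). Axl had a mean of 953, so such intervals were not confined to genes of low signal.

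The pathway around the receptors was read from 8 lists of ligands, other receptors, adaptors, inhibitors and ephrin partners that hold no member. Of 106 genes tested, 6 (5.66%) passed, 4 higher and 2 lower, against 2.88% of all genes. An unadjusted p under 0.05 in limma was found for 25 (23.6%), against 18.5% of all genes. The groups did not overlap for 19 (17.9%), against 15.7% of all genes. Fgf1, a ligand of all FGF receptors, was the 1 of 9 FGF ligands that passed, at 0.35 (SE 0.07, adjusted p = 0.0243), with a signal of 1335 ± 56.2 (SD, n = 4) against 1044 ± 69.4 (SD, n = 5). Fgfrl1, an FGF receptor without a kinase domain, was at 0.37 (adjusted p = 0.0555), and Frs2, the docking protein of FGF receptors, at 0.19 (adjusted p = 0.135). Shc3, an adaptor of neurons that links receptors to GRB2, rose by 0.56 on the log2 scale, with 736 ± 22.3 (SD, n = 4) in the mutants against 499 ± 25.8 (SD, n = 5) in the controls (adjusted p = 0.00413).

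Among the other adaptors Irs2, a substrate of insulin and IGF receptors, was higher by 0.21 (adjusted p = 0.0479) and Dok6, an adaptor that binds Ret, was at a log2 difference of -0.36 (adjusted p = 0.0420). Of 10 ubiquitin ligases and inhibitors of receptors 1 passed. Cblb, a ligase that marks activated receptors for degradation, fell by 0.47 on the log2 scale, with 506 ± 45.5 (SD, n = 4) in the mutants against 702 ± 46.1 (SD, n = 5) in the controls (adjusted p = 0.0210). Of 17 ephrin signalling partners 1 passed, Vav2, an exchange factor recruited by Eph receptors, at 0.42 (adjusted p = 0.0439). None of the 6 passed without Nestin;BrafKE/+ replicate 1, where Shc3 had an adjusted p of 0.0554. With each library left out in turn, Irs2 passed in 0 of 9 fits, Vav2 in 1, Dok6 in 3, Fgf1 and Cblb in 6 each and Shc3 in 8. The fits without Nestin;BrafKE/+ replicate 4 and without Braf+/+ replicate 5 are 1 check, and Dok6 passed in both.

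The remaining lists had 0 genes past the test. They held 18 other receptor tyrosine kinases (6 at an unadjusted p under 0.05 in limma), 8 ErbB ligands (2), 11 vascular and platelet-derived ligands (0), and 10 ligands of Kit, Met, Ret, Alk, TAM receptors and Csf1r (2). Erbb4, the neuregulin receptor of interneurons, was at -0.27 (adjusted p = 0.0727), and its ligand Nrg2 at -0.67 (adjusted p = 0.0827). Pdgfra, the receptor that marks oligodendrocyte precursors, was at 0.27 (adjusted p = 0.0842). Of 7 precursor markers, which include Pdgfra, 6 were higher and 1 passed, Cspg4 at 0.65, and the summed signal was 4339 to 4694 in the mutants and 3605 to 3896 in the controls.

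**Figure D5:**
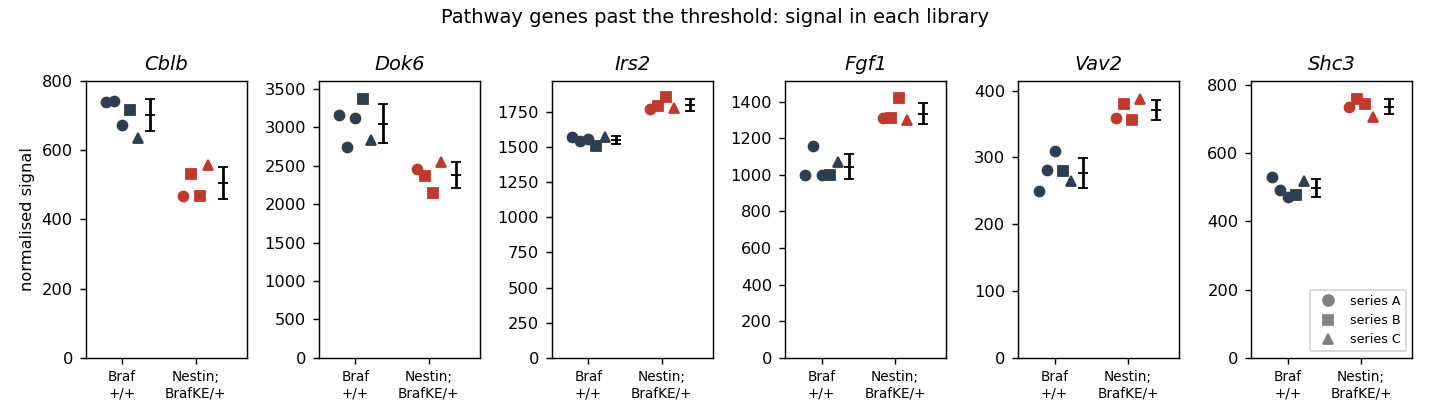
Normalised signal of the 6 pathway genes that passed the test, in each library of Braf+/+ (n = 5, dark) and Nestin;BrafKE/+ (n = 4, red), with symbols for the series and bars for the mean and SD. Cblb and Dok6 sit lower and Irs2, Fgf1, Vav2 and Shc3 higher in the mutants, with no overlap between the groups in any panel.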

How the data were processed

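Hippocampal RNA from 9 male mice was sequenced from stranded mRNA libraries. Per the labels and methods, the authors used Trim Galore, STAR on GRCm39 and Salmon within nf-core/rnaseq, then removed effects of unnamed batches and scaled for DESeq2. The deposited values are a signal in normalised counts. In every library they were whole multiples of 1 step (100%, within 0.01 of a step), none was 0, and mt-Co1 came to 491938 steps in all 9 libraries. They are therefore not reads. Depth is unknown, no count model was run, and errors come from the spread over animals taken as independent. In the deposited values the libraries of series C were not, with a correlation of -0.997 between their deviations. No libraries were near copies, since the SD of the log2 difference between any pair was 0.173 to 0.389.

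The test was limma 3.58.1 under R 4.3.3, with lmFit and a trended eBayes on log2(signal + 1), for genes whose mean reached 10. Genotype and series were the terms. All p-values were two-sided, with Benjamini-Hochberg adjustment over 16196 genes, and the code was tested on simulated data first. Every member is named, with full statistics for those that passed and then by p up to 12. The members, lists and tests were chosen with earlier results of these data known. Coordinates, exon overlaps and promoter windows come from Gencode vM39 on GRCm39, in which 99.5% of gene IDs were found. The paper used an earlier Gencode release, so the overlaps need not apply to the deposited values. Alternatives were other pseudocounts, filters, scalings, terms, weights and thresholds, and leaving out each library. Figures used Python 3.11.15, pandas 2.3.3 and matplotlib 3.10.9.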

Additional observations from a re-analysis of the deposited data

Results flagged for a closer look

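Of 114 groups of values checked, 7 had 1 library far from the rest of its group, where chance gives about 1 in 20. Mertk was 897.1 in Braf+/+ replicate 2 against 840.3 to 851.5 in the other controls, a value still below every mutant library. Epha5 was 2580 in Nestin;BrafKE/+ replicate 1 against 2338 to 2358 in the other mutants. Ror1 was 150.6 in Braf+/+ replicate 4 against 104.1 to 115.5, and Ephb2 was 465 in the same library against 548.1 to 551.5. Erbb3 was 247.3 in Nestin;BrafKE/+ replicate 4 against 297.5 to 305.2. The summed choroid plexus markers were 392876 in Braf+/+ replicate 2 against 4905 to 115475 in the other controls, and the summed excitatory neuron markers were 156049 in Nestin;BrafKE/+ replicate 2 against 132280 to 134229. The causes were not tested.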

How the results depend on the processing

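Among 838 member differences recomputed under alternatives, 768 kept their direction and side of the threshold, 4 lost the call (all Efnb3), 12 gained it and 54 changed sign. The sign changes were in 18 members, none of which passed in either fit, with adjusted p-values of at least 0.396. On leaving out a library the estimates of these 18 ran from -0.001 to 0.196 for Ephb3, -0.042 to 0.508 for Met, -0.186 to 0.135 for Kit, -0.067 to 0.197 for Efnb2, -0.09 to 0.028 for Epha7, -0.05 to 0.208 for Kdr, -0.074 to 0.01 for Epha4, -0.046 to 0.199 for Ptk7 and -0.28 to 0.266 for Efna5, and from -0.05 to 0.149 for Efna3, -0.048 to 0.082 for Tek, -0.152 to 0.076 for Epha2, -0.082 to 0.018 for Efna2, -0.098 to 0.087 for Epha6, -0.142 to 0.141 for Ephb2, -0.078 to 0.164 for Erbb3, -0.05 to 0.089 for Insr and -0.182 to 0.335 for Efna1. The other sign changes gave 0.008 for Epha7, 0.019 for Epha4, -0.089 for Erbb3 and -0.019 for Insr with 4 name prefixes, -0.019 for Efna3, -0.012 for Ephb2 and -0.014 for Erbb3 with array quality weights, and 0.015 for Epha6, -0.006 for Insr and -0.063 for Efna1 with the replicate block. Members past the threshold numbered 12 without the series term, 5 with the replicate block in place of the series and 2 to 4 on leaving out a library. Without the series term the added calls were Pdgfrb, Ephb1, Mertk, Epha5, Axl, Alk, Fgfr3, Epha3 and Ephb6, and with the replicate block Pdgfrb and Ephb1. Genes past the threshold numbered 466, and 2260 without the series term, 165 with 4 name prefixes, 1405 with the replicate block, 258 with array quality weights, 927 at an adjusted p under 0.1 and 42 to 371 on leaving out a library. The same settings gave 20, 2, 10, 3, 11 and 0 to 6 pathway genes against 6. Replicate numbers do not pair the samples, since same-numbered libraries of replicates 1 to 4 deviated with correlations of -0.39, -0.0779, 0.0686 and 0.415. Mutant and control libraries of the same series all deviated in opposite directions, with correlations from -0.104 to -0.997. The value of -0.997 was between Nestin;BrafKE/+ replicate 4 and Braf+/+ replicate 5, the libraries of series C. The SDs and the counts without overlap treat these libraries as independent, which they are not. The fits without the series term and with the replicate block do so too. Their p-values can therefore be too small, and the calls they added are no further evidence for those members. Without either library of series C the other has no partner, so these fits gave the same estimates (-0.048 for Tek in both) and are 1 check. The causes of these shifts were not tested. Without Nestin;BrafKE/+ replicate 1 the counts were the lowest of these, at 42 genes and 0 pathway genes, and without Braf+/+ replicate 4 they were 97 and 1. Epha2 and Ror2 could not be fitted at a minimum mean of 50. Depth is unknown, so no limit from reads can be given.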
